A study of Mus musculus with 8 samples.

Results

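The transcripts of the enzymes that make and split N-acetylaspartate (NAA) and N-acetylaspartylglutamate (NAAG) were compared between the brains of BTBR/R and B6 mice. The 6 enzyme genes were Nat8l, Rimkla, Rimklb, Folh1, Naalad2 and Aspa, and every array probe whose listed gene name equals one of these symbols was taken, which gave 10 of the 56605 probes and 6 of the 37074 gene names on the array. Total RNA from dissected cerebral cortex and striatum of 4 male C57BL/6J mice (B6) and 4 male BTBRTF/ArtRbrc mice (BTBR/R) was hybridized to Agilent one-color mouse arrays, with 1 mouse per array. BTBR/R is an inbred strain related to the BTBR strain used as a mouse model of autism spectrum disorder, and B6 is the reference strain. No treatment was given to either strain with the samples, and the listed age was 4 months, or 6 months in the case of BTBR/R replicate 1. The strains differ across the whole genome, so that a strain difference cannot be assigned to an allele.

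NAA is made from aspartate and acetyl-CoA, mainly in neurons, by the acetyltransferase encoded by Nat8l. The ligases encoded by Rimkla and Rimklb join NAA to glutamate to form NAAG, a peptide transmitter that acts on the metabotropic glutamate receptor mGluR3. Glutamate carboxypeptidase II (Folh1), known in brain mainly from astrocytes, and the related carboxypeptidase III (Naalad2) act at the cell surface. They split NAAG back into NAA and glutamate. Aspartoacylase (Aspa), an oligodendrocyte enzyme, splits NAA into aspartate and acetate.

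The sequences below bear on how these transcripts were read. The study's quantitative PCR primers for Folh1 are shown because 1 of them lies on an array probe, and capitals mark the 21 bases of the 22-base reverse primer whose reverse complement forms the 3′ end of probe A_51_P189575.
Folh1 forward primer: ggcctggaacgaagtgaaga
Folh1 reverse primer: gCTCCATAGTTCCATAGGGATT
Folh1 A_51_P189575, last 30 bases: gaatcacaaAATCCCTATGGAACTATGGAG
Folh1 A_55_P1963154, last 30 bases: ctcatatcttgtaaaactcagcactctgaa
The Naalad2 probes and 1 Rimklb probe are shown because they define what was below the detection of the arrays, and 1 Aspa probe because it gave the same level in both strains within its error.
Naalad2 A_52_P610885: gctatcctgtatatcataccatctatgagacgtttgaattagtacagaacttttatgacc
Naalad2 A_55_P2606240: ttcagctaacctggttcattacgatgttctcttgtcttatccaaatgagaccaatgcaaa
Rimklb A_52_P276430: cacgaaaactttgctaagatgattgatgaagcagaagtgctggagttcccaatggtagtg
Aspa A_51_P259975: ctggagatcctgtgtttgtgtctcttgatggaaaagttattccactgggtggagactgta
No run of 20 bases in any of the 10 probes, on either strand, was shared with an array probe listed for another gene.

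Levels are given as the scaled signal, the log2 processed signal of a probe minus the 75th percentile of its array, and a change is the mean of BTBR/R minus that of B6. A probe passed when limma's Benjamini-Hochberg adjusted p over all probes was below 0.05. Detection on an array means the flag "well above background" set by the scanner software. The arrays of B6 mice detected 64.5% to 66.8% of the probes with a lowest detected signal of 14.5 to 17.8 units, and those of BTBR/R mice detected 53.5% to 57.2% with a lowest signal of 36.1 to 47.1 units. For the 14867 probes that no array detected, the median signal was 3.58 to 4.31 units in B6 mice and 8.56 to 10.7 units in BTBR/R mice, and 72.6% of them passed as higher in BTBR/R. Members below detection were therefore given no direction. All arrays shared 1 slide, where B6 filled column 1 and BTBR/R column 2, and the effects of strain and of column cannot be told apart.

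Every array detected 7 of the 10 member probes, among 28557 such probes in all. Folh1 was higher in BTBR/R by both of its probes, Nat8l was 1.15-fold higher, and Rimklb was 1.43-fold lower. Rimkla passed as 1.23-fold higher but lost the call in many alternatives, and the Aspa probes did not pass. In all, 5 of the 7 probes passed, against 26.9% of the probes detected on all 8 arrays. Of these, 4 were higher in BTBR/R (background 13%) and 1 was lower (background 13.9%). The change was also at least 2-fold for 2 of them, both of Folh1, against 2.2% of the background in either direction and 1.04% for higher in BTBR/R. The strains did not overlap for 4 of the 7 probes, against 32.6% of the background.

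**Figure D1:**
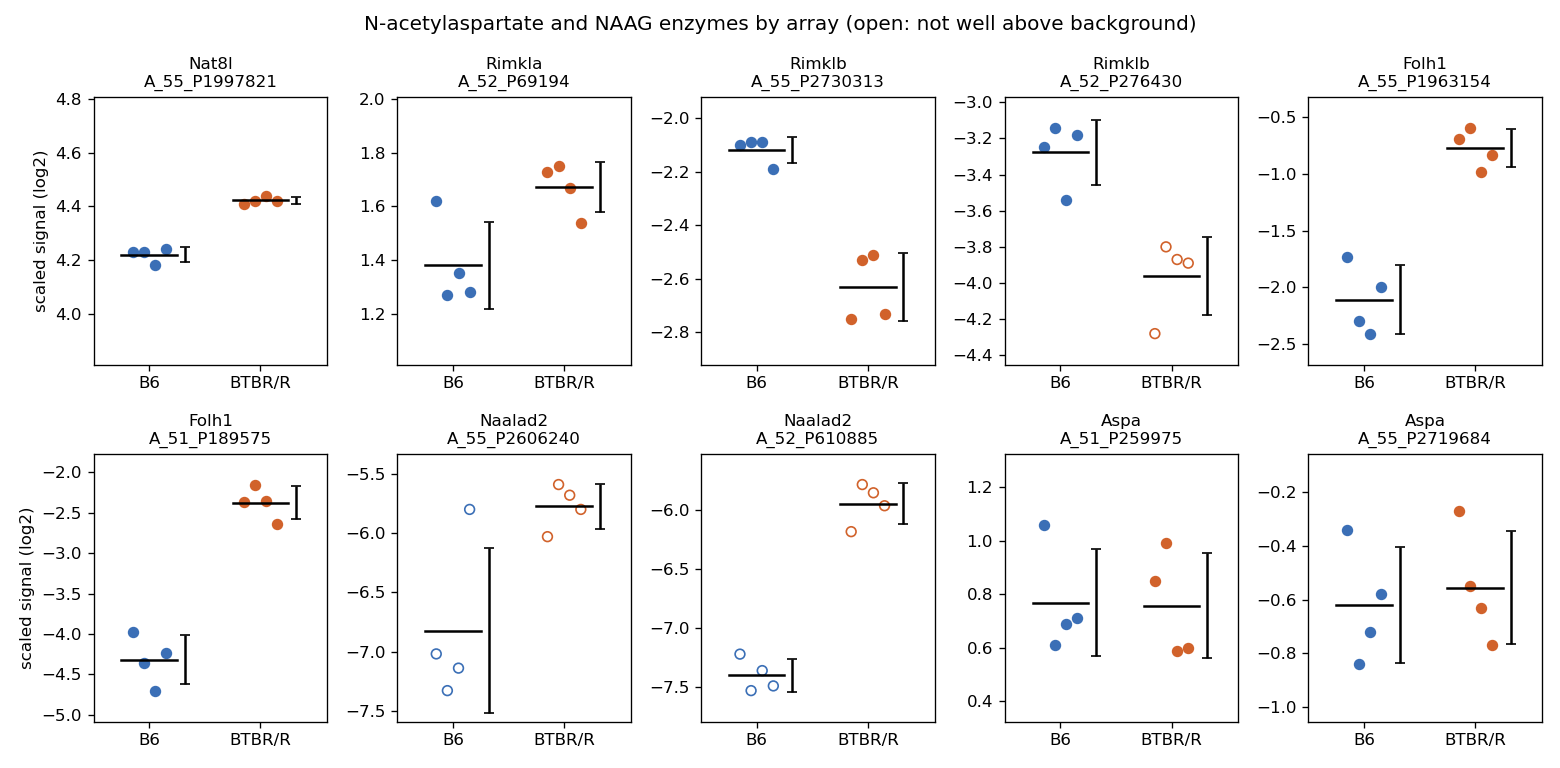
Scaled signal (log2 units, separate axis range in each panel) of the 10 enzyme probes on the 4 B6 and 4 BTBR/R arrays, with the mean as a line and the SD as a bar beside it. Open circles are strains in which no array detected the probe. The strains separate for Nat8l, Rimklb and Folh1 and overlap for Rimkla and Aspa.

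Nat8l encodes the only synthesis enzyme of the group that acts on aspartate. Its probe A_55_P1997821 (mm9 chromosome 5, 34348343 to 34348402, plus strand) read 4.23, 4.23, 4.18 and 4.24 in B6 replicates 1 to 4 and 4.41, 4.42, 4.44 and 4.42 in BTBR/R replicates 1 to 4. Every BTBR/R mouse lay above every B6 mouse. The change was 0.20 (SE 0.04, 95% confidence interval 0.11 to 0.29, n = 4 per strain, limma adjusted p = 0.0049). The median absolute change of the probes detected on all 8 arrays was 0.12, and 31.3% of them changed more than Nat8l. The probe was among the brighter ones, with 6.39% of those probes brighter. The spread within a strain was narrow, with an SD of 0.03 in B6 and 0.01 in BTBR/R.

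The ligases that form NAAG had fitted changes of opposite sign. Only that of Rimklb, by its brighter probe, kept its call in every alternative. Rimkla, the NAAG synthetase gene measured by A_52_P69194 (chromosome 4, 119137933 to 119137992, minus strand), read 1.62, 1.27, 1.35 and 1.28 in B6 and 1.73, 1.75, 1.67 and 1.54 in BTBR/R. B6 replicate 1 lay above BTBR/R replicate 4, so the strains overlapped. The change was 0.29 (SE 0.09, interval 0.08 to 0.51, limma adjusted p = 0.0392). The call was lost in 6 of the 8 fits that left out 1 mouse, namely B6 replicates 2, 3 and 4 and BTBR/R replicates 1, 2 and 3 in turn, where the adjusted p reached 0.0978. It was also lost in 6 of 12 other alternatives, among them the methods' t-test (adjusted p = 0.0515).

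Rimklb, the second ligase, which also forms citrylglutamate, was lower in BTBR/R. Its brighter probe A_55_P2730313 (chromosome 6, 122404278 to 122404337, minus strand) read -2.10, -2.09, -2.09 and -2.19 in B6 and -2.75, -2.53, -2.51 and -2.73 in BTBR/R. All BTBR/R mice lay below all B6 mice. The change was -0.51 (SE 0.07, interval -0.68 to -0.34, limma adjusted p = 0.000947). The other probe, A_52_P276430 (122411001 to 122411060), was detected on all 4 B6 arrays and on 0 BTBR/R arrays. Its scaled signal was -3.25, -3.14, -3.54 and -3.18 in B6 and -4.28, -3.80, -3.87 and -3.89 in BTBR/R. Taking each BTBR/R array at its detection limit or at the probe's own signal, whichever was higher, B6 was at least 1.34-fold higher by this probe in the main scaling (limma adjusted p = 0.00548 on the measured values). The bound holds for that scaling only. The change was -0.19 with normexp background correction (adjusted p = 0.0538) and -0.27 with a floor at the highest detection limit of the 8 arrays (adjusted p = 0.122), an alternative chosen after seeing the data. Both are smaller than the bound and did not pass, so the call for Rimklb rests on A_55_P2730313.

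Folh1, the main NAAG-splitting peptidase of the brain, had the largest changes among the member probes detected on all 8 arrays. Probe A_55_P1963154 (chromosome 7, 93867724 to 93867783, minus strand) read -1.73, -2.30, -2.41 and -2.00 in B6 and -0.69, -0.59, -0.98 and -0.83 in BTBR/R. The lowest BTBR/R mouse was above the highest B6 mouse. The change was 1.34 (SE 0.16, interval 0.95 to 1.72), or 2.53-fold (limma adjusted p = 0.000415), and 1.09% of the probes detected on all 8 arrays changed more.

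Probe A_51_P189575 of Folh1, which carries the site of the reverse primer shown above, starts 403 bases upstream of the other on the listed transcript. The array annotation places it at 93868127 to 93868181 and lists a span of 55 bases for the 60-base probe. It read -3.97, -4.36, -4.70 and -4.23 in B6 and -2.36, -2.15, -2.35 and -2.64 in BTBR/R, again without overlap. The change was 1.94 (SE 0.17, interval 1.54 to 2.34), or 3.83-fold (limma adjusted p = 5.49e-05), and 0.389% of the probes detected on all 8 arrays changed more.

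The size of this second change depended on how low signals were treated. In B6 the probe had a signal of 21.4 to 36.0 units, above the detection limits of the B6 arrays but below those of the BTBR/R arrays. The difference of the strain means was 80.6 units for A_51_P189575 and 199 units for A_55_P1963154, beside 6.10 units for the probes that no array detected. With normexp background correction the change was 0.84 for A_51_P189575 and 1.02 for A_55_P1963154, and with a floor at the highest detection limit it was 1.17 and 1.34. Both probes passed, higher in BTBR/R, in all these settings.

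The gap between the 2 Folh1 probes is given as a description, since it was chosen after the values were seen. The difference of A_51_P189575 minus A_55_P1963154 was -2.24, -2.06, -2.29 and -2.23 in B6 and -1.66, -1.56, -1.37 and -1.82 in BTBR/R. The mean difference was -2.20 in B6 and -1.60 in BTBR/R. The order of the changes depended on the processing, and A_51_P189575 had the larger one in the main scaling but the smaller one with normexp correction and with the detection floor. Which probe changed more was therefore not settled.

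**Figure D2:**
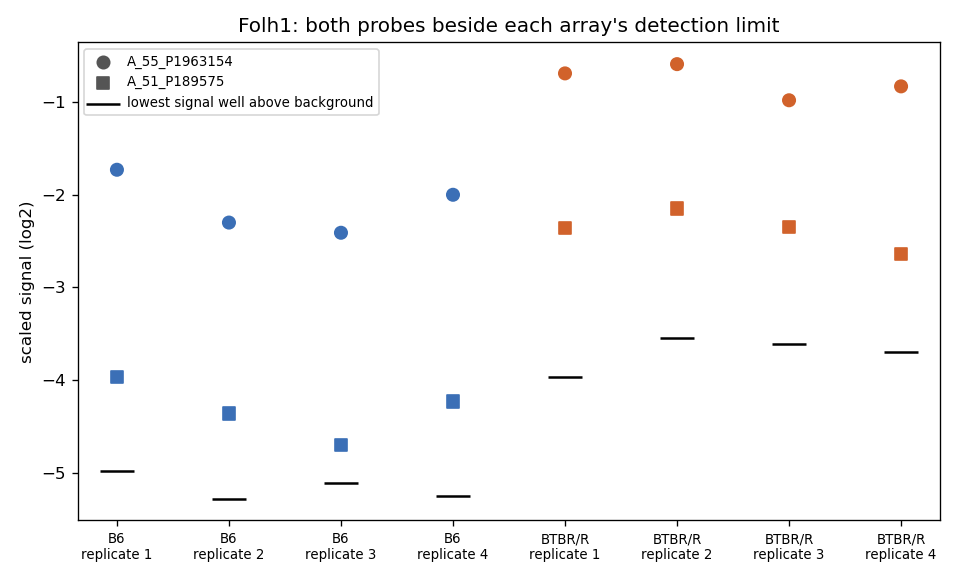
Scaled signal (log2) of the Folh1 probes A_55_P1963154 (circles) and A_51_P189575 (squares) on each array, B6 in blue and BTBR/R in orange, with black bars at the lowest scaled signal that was detected on that array. Both probes lie above the bars on every array, and the bars are higher on the BTBR/R arrays.

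Naalad2, which encodes the second NAAG peptidase, was not detected. Neither A_55_P2606240 nor A_52_P610885 (chromosome 9, sequences shown above) was well above background on any of the 8 arrays. Both probes passed in the fit on these signals, where 27.7% of all 56605 probes and most undetected ones passed as higher in BTBR/R, and no fold or direction is read from them. Whether the second peptidase differed between the strains could not be measured at the signal of these arrays.

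Aspa, which completes the breakdown of NAA, did not pass by either probe. A_51_P259975 (chromosome 11, 73119051 to 73119110, minus strand) read 1.06, 0.61, 0.69 and 0.71 in B6 and 0.85, 0.99, 0.59 and 0.60 in BTBR/R. A_55_P2719684 (73129500 to 73129559), listed for another transcript, read -0.34, -0.84, -0.72 and -0.58 in B6 and -0.27, -0.55, -0.63 and -0.77 in BTBR/R. The strains overlapped by both probes, with the highest B6 value in replicate 1 each time. The changes were -0.01 (interval -0.32 to 0.30, limma adjusted p = 0.963) and 0.06 (interval -0.27 to 0.40, limma adjusted p = 0.751), so that a 1.24-fold difference by the brighter probe lies within the interval.

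Cell type markers were set beside these enzymes, since in bulk tissue fewer cells of a type and less RNA per cell cannot be told apart. The 10 oligodendrocyte markers, all with a probe detected on every array, had a mean scaled signal of 3.76 to 4.10 in B6 and 3.53 to 3.73 in BTBR/R, and of their 16 probes detected on all 8 arrays 1 passed as higher and 5 as lower, where the background was 13% and 13.9%. The Aspa change of -0.01 stood beside a difference of -0.33 in the mean of these markers. The 10 astrocyte markers had a mean of 3.45 to 3.60 in B6 and 3.25 to 3.44 in BTBR/R, with 0 of 21 probes higher and 9 lower, while Folh1 was higher. The 9 were of Aldoc, Aqp4, Gjb6, Aldh1l1 and Slc1a2, and no such probe of Gfap, S100b, Fgfr3, Gja1 or Slc1a3 passed. The 8 neuronal markers had a mean of 5.68 to 5.71 in B6 and 5.59 to 5.64 in BTBR/R. Of their 22 probes, 4 were higher and 5 lower, beside the higher Nat8l. By the brightest probe of each gene, Nefl changed by -0.75 and the others by -0.17 (Rbfox3) to 0.13 (Eno2). The 4 endothelial markers had a mean of 0.99 in B6 and 0.74 in BTBR/R, with no overlap of the mice (0 of 6 probes higher, 1 lower) and the 6 microglial markers a mean of 2.11 to 2.15 and 1.97 to 2.10 (1 of 7 higher, 3 lower). The 5 cortical excitatory neuron markers had a mean of 1.69 to 1.97 in B6 and 1.83 to 2.06 in BTBR/R (2 of 8 probes higher, 0 lower). For the 7 striatal projection neuron markers it was 2.96 to 3.13 and 2.93 to 3.13 (0 of 11 higher, 1 lower). All 10 astrocyte, 8 neuronal, 5 cortical excitatory neuron and 7 striatal projection neuron markers had a probe detected on all 8 arrays. The tissue content of the samples was not tested. The 5 choroid plexus markers varied widely between mice of the same strain, with a mean of -1.62 to 0.63 in B6 and -1.27 to -0.03 in BTBR/R, and 0 of their 6 probes detected on all 8 arrays passed in limma. The part of cell composition in the enzyme changes was not tested.

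The wider pathway held 21 genes for aspartate and acetyl supply, transport, the NAAG receptor, acetate use, related enzymes, glutamate uptake and folate handling. Of their 33 probes detected on all 8 arrays, in 20 genes, 1 passed as higher, 5 as lower and 27 did not pass. The 6 probes that passed are to be read against the 26.9% given above, and the median change was -0.03, against 0.00 over all probes detected on all 8 arrays. None passed with a 2-fold change. The number that passed was 3 without B6 replicate 2, without B6 replicate 3 or without BTBR/R replicate 1, and also 3 with replicate number as a block.

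Grm3, which encodes the receptor mGluR3 for NAAG, had the largest change that passed among the probes of the list detected on all 8 arrays. It read 0.91, 1.11, 1.07 and 1.04 in B6 and 0.36, 0.43, 0.53 and 0.36 in BTBR/R, where every mouse was lower. The change was -0.61 (SE 0.06, 1.53-fold lower, limma adjusted p = 0.000172). Among the marker lists, the mean was higher in BTBR/R only for cortical excitatory neurons (0.09). The others differed by -0.33 (oligodendrocyte) to -0.01 (striatal projection neuron).

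Slc1a2, the main astrocytic glutamate transporter and itself one of the astrocyte markers, changed by -0.28 (adjusted p = 0.00642), and Ggh, a folate hydrolase, by -0.29 (adjusted p = 0.00383). Slc13a3, which carries NAA into glia, changed by -0.17 (adjusted p = 0.0412). Acss2, which turns acetate into acetyl-CoA, changed by -0.15 by its brightest probe (adjusted p = 0.0472) and did not pass by the others. Naaladl2, a gene related in sequence to the peptidases, changed by 0.44 (adjusted p = 0.0275). The calls of Slc13a3 and Acss2 were each lost in 7 of the 8 fits that left out 1 mouse, and that of Naaladl2 in 4. With replicate number as a block, the calls of Slc13a3, Acss2 and Naaladl2 were also lost (limma adjusted p = 0.0726, 0.101 and 0.1). With spike-in scaling, which moved the median of all detected probes by 0.11, the calls of Ggh (-0.18, adjusted p = 0.0568), Slc13a3 (-0.06) and Acss2 (-0.04) were lost.

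The supply side did not pass. The 12 probes of Slc25a12, Slc25a13, Got1, Got2 and Acly, which provide aspartate or acetyl-CoA, had a median change of -0.02 and 0 passed. Slc25a12, the mitochondrial aspartate carrier of neurons, gave -0.03 by its brightest probe (adjusted p = 0.617). Naaladl1, a further peptidase relative named after its values were seen, was detected on 0 B6 arrays and 2 BTBR/R arrays. Its scaled signal was -7.12, -7.42, -7.23 and -7.38 in B6 and -1.58, -5.74, -1.83 and -4.81 in BTBR/R, with replicates 1 and 3 far above the others.

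**Figure D3:**
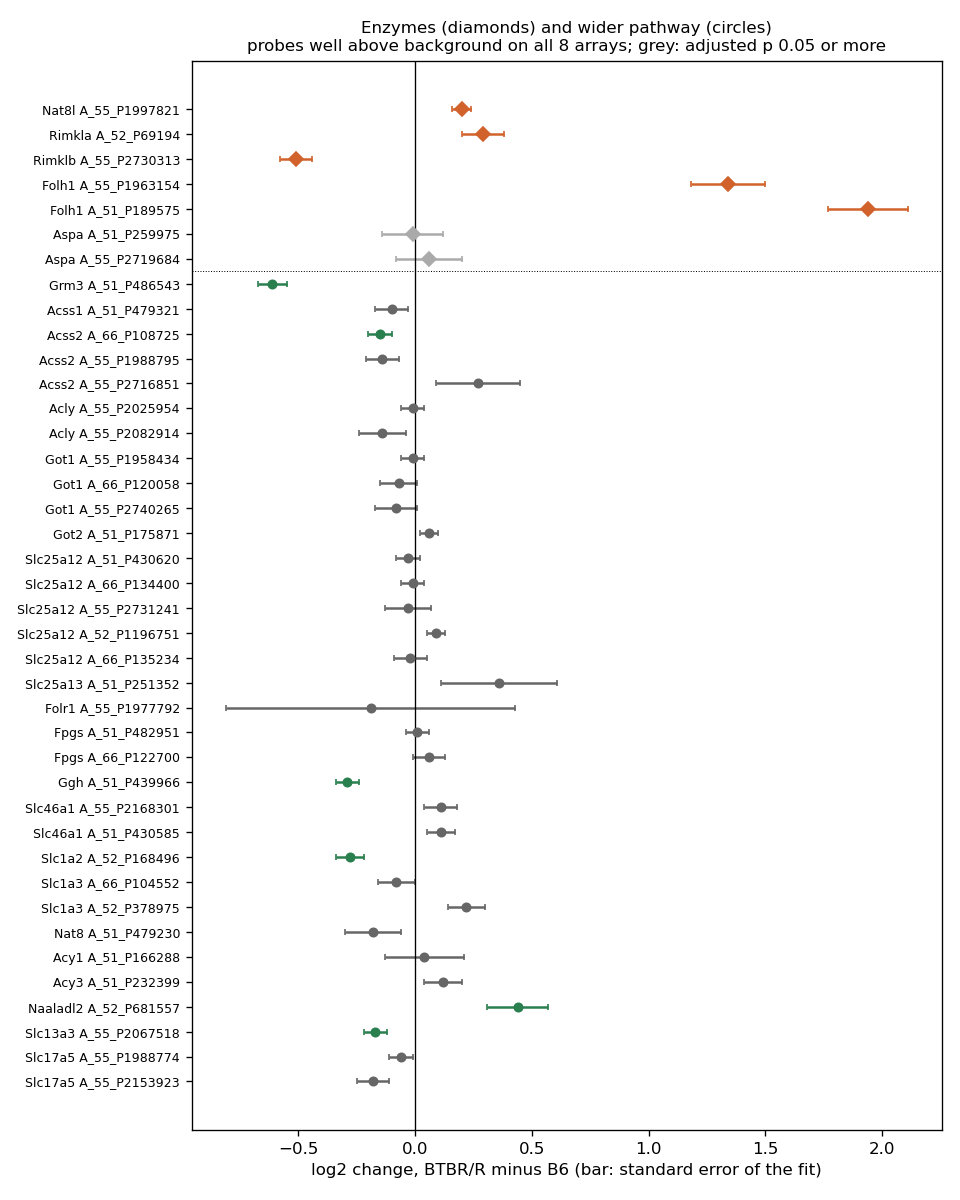
Change of scaled signal (log2, BTBR/R minus B6) with the standard error of the fit for the 7 enzyme probes (diamonds) and the 33 probes of the wider pathway (circles) detected on all 8 arrays, where grey marks an adjusted p of 0.05 or more. The Folh1 probes at 1.34 and 1.94 lie farthest from 0, and Grm3 at -0.61 is the lowest.

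Genes beside the enzyme genes, within 500 kb on mm9, were examined to describe the surroundings of each enzyme gene. None of the 22 probes beside Folh1 was detected on all 8 arrays, so that its surroundings gave no comparison. The counts that follow are to be read against the 13% of all probes detected on all 8 arrays that passed as higher and the 13.9% that passed as lower. Beside Nat8l, 6 of 34 detected probes passed as higher and 4 as lower. The largest changes there were -2.47 for Rnf4, -2.21 for Slbp and -0.66 for BC021394, opposite in direction to Nat8l. Each came from 1 probe, and the other detected probes of Rnf4 (0.05) and Slbp (-0.08 and -0.09) did not pass.

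Beside Rimkla, 9 of 26 probes passed as higher and 5 as lower, with 1.05 for Ppih, which held 4 of the 9 higher probes, -0.86 for AA415398 and -0.73 for Ccdc30. Another Ccdc30 probe changed by 0.42, so that its probes disagreed in direction, and a second AA415398 probe (-0.25) did not pass. Beside Rimklb, 0 of 16 probes passed as higher and 3 as lower, 2 of them of Apobec1 (-1.02 and -0.94) and 1 of the transcript ENSMUST00000050391 (-0.48). Beside Aspa, 2 of 16 passed as higher, both of 1200014J11Rik (0.31 and 0.32), and 1 as lower, of Atp2a3 (-0.58). The stronger 1200014J11Rik call (adjusted p = 0.0147) was lost with replicate number as a block (adjusted p = 0.0803), and the other was near the threshold (adjusted p = 0.0487). Of the 3 probes beside Naalad2, for Chordc1 and D9Ertd720e, 0 passed.

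**Figure D4:**
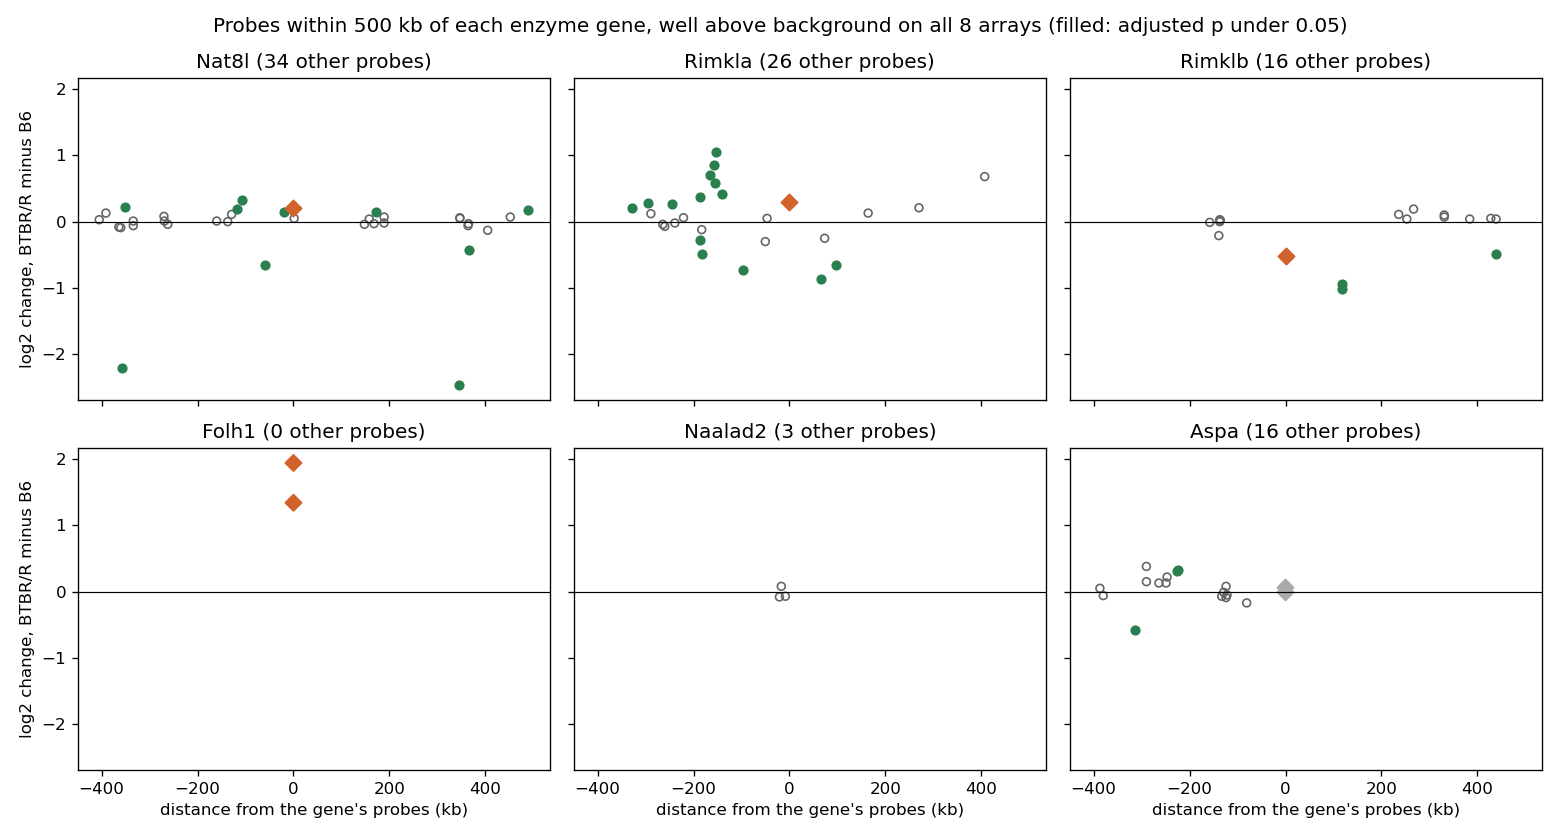
Change (log2, BTBR/R minus B6) of other probes detected on all 8 arrays by distance in kb from the probes of each enzyme gene, filled where the adjusted p was below 0.05, with the enzyme's own detected probes as diamonds at distance 0. Probes that passed lie in both directions beside Nat8l, Rimkla and Aspa, and only below 0 beside Rimklb.

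The genes whose mouse-to-mouse deviations from the strain means were most like those of each brightest enzyme probe are given as a description over 8 arrays, with the highest values among 28556 probes and no test. For Nat8l they were an intergenic transcript, Adipor1 and Ap3s2 (Pearson r of 0.977, 0.976 and 0.974). For Rimkla they were Cdc42ep1, Snora47 and Agt (0.995, 0.99 and 0.989), and for Rimklb the transcript ENSMUST00000063463 and Surf6 (0.997 and 0.975). For Folh1 they were Sema6c, Glud1 and the transcript ENSMUST00000121261 (0.982, 0.982 and 0.978). For Aspa they were Evpl, Bms1 and Prr18 (0.993, 0.986 and 0.986).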

How the data were processed

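RNA of 8 mice was measured on Agilent arrays on 1 slide and grouped by the strain in the labels. The authors deposited spot intensities from Agilent Feature Extraction 10.7.3.1, whose processed signal is background subtracted and spatially detrended with surrogates for the lowest values, and log2 values from GeneSpring, which lay within 0.01 of the log2 of that signal minus 1 constant per array for at least 99.97% of the values. Positions are those of the mm9 annotation on the arrays.

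Control spots and 36 to 52 outlier spots per array were left out, spots of a probe were averaged, and log2 signals minus the 75th percentile of each array were compared over 56605 probes with limma 3.58.1 (lmFit, eBayes) in R 4.3.3, with strain as the only term. The fit was tested on simulated data, where changed probes that were not detected on all 8 arrays were recovered less often than the detected ones, and the criterion for that test was revised after its first result. Figures used matplotlib 3.10.9. The members, the lists and the rule for named genes were chosen with earlier results of these data known. The named genes were all members, the wider-list genes that passed on probes detected on all 8 arrays, Grm3, Slc13a3, Acss2 and Slc25a12, up to 3 genes beside each member by the size of their change, and the 3 genes most like each detected member, of which 1 is not reported here. For genes beside the members, the rule was read as probes detected on all 8 arrays after the values were seen. The number of arrays limits the precision. Nothing states whether mice shared a litter. The p-values set a strain difference against the spread between the arrays of these mice within a strain. The alternatives were normexp (offset 50), quantile, median, detected-probe and spike-in scaling, the authors' log2 values, detection filters, the methods' t-test, limma trend with robust, a replicate block, gene means, a detection floor added later, and leaving out each mouse. Protein identity was not analysed here.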

Additional observations from a re-analysis of the deposited data

Results flagged for a closer look

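Of the 20 sets of 4 values formed by the 10 enzyme probes and 2 strains, 1 had a mouse set far apart from the others. B6 replicate 4 read -2.19 by Rimklb probe A_55_P2730313, with the gap to the nearest mouse at 0.897 of the range, above Dixon's 95% critical value. Chance alone sets apart about 1 in 20 such sets. The other 3 B6 mice lay between -2.10 and -2.09, so the gap was small beside the strain change of -0.51.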

How the results depend on the processing

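Nat8l (0.17 to 0.31), Rimklb by its brighter probe (-0.54 to -0.36) and Folh1 (1.02 to 1.64) kept their direction and their call in every alternative run. Rimkla lost its call at 0.24 with normexp, 0.28 with detected-probe scaling, and 0.29 with quantile normalization, the methods' t-test, the replicate block and the detection floor. Naalad2, undetected throughout and without a readable direction, gave fitted values of -0.18 with normexp (reversed), 0.08 with quantile normalization, 1.05 with the methods' t-test and the block, and 0.00 at the floor, and its probe A_52_P610885 gave -0.03 with normexp. Aspa, near 0, turned to 0.10 with spike-in scaling and 0.03 as a gene mean. Leaving out 1 mouse gave 0.19 to 0.21 for Nat8l, 0.26 to 0.37 for Rimkla, -0.55 to -0.47 for Rimklb, 1.24 to 1.46 for Folh1, 0.88 to 1.39 for Naalad2, -0.09 to 0.09 for Aspa and -0.03 to 0.16 for Aspa probe A_55_P2719684. With 1 mouse left out, 4 to 5 member probes and 3 to 5 wider-list probes passed, not always those of the full set, and 3 wider-list probes passed with the replicate block. The causes were not tested.

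The 12697 probes that passed with a 2-fold change (11413 higher, 1284 lower) became 563 with normexp (231 higher, 332 lower), 2200 with quantile normalization (544 higher, 1656 lower), 1558 among probes detected on all arrays of a strain and 631 among those detected on all 8. Probes past the adjusted p alone numbered 22234, and 12105, 14512, 10003 and 8565 in the same order. With normexp 1 member probe, not 2, changed 2-fold. Spike-in scaling moved the median of detected probes by 0.11, and turned Slc25a12 (0.08), Chordc1 (0.03) and D9Ertd720e (0.04), the last also 0.02 with normexp. Same-numbered mice of the strains correlated at 0.0028, -0.0699, -0.0448 and 0.156, so the numbers were not taken as pairs. Protein identity was not run. Dim probes were limited by the higher detection limit of the BTBR/R arrays.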
